A study of Mus musculus with 18 samples.

Results

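The miRNAs described here are 10 mature mouse miRNAs known from the choroid plexus and from cells with motile cilia, out of 1841 mature miRNAs listed in the deposited tables. They were chosen by name, and all 10 were found. mmu-miR-448-3p, mmu-miR-1298-5p, mmu-miR-1264-3p and mmu-miR-1912-3p have hairpins in the serotonin receptor gene Htr2c. mmu-miR-204-5p and mmu-miR-211-5p form a near-identical pair, and mmu-miR-34b-5p, mmu-miR-34b-3p, mmu-miR-34c-5p and mmu-miR-449a-5p are known from ciliated cells. The prefix for mouse is left off from here on. Small RNAs of brain tissue were sequenced in 18 libraries, 3 biological replicates for each of 6 groups. Hippocampus came from mice lacking the long noncoding RNA Cyrano (CyrKO) and from wild-type mice (WT). Cerebellum came from double mutants (CyrKOCdr1as671), CyrKO mice, Cdr1as671 mice and WT mice. Cdr1as671 mice carry a deletion of 18 nt in Cdr1as, a circular RNA, where miR-671 pairs with it, and the double mutants carry both alleles. All animals were males aged 1 month on the C57BL/6J strain, so all groups share strain, sex and age. Each library is bulk tissue, so fewer cells of a type and less RNA per cell cannot be told apart. Cyrano and Cdr1as are too long for these libraries, and the genotypes were not checked on them here.

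The choroid plexus is a folded epithelium inside the brain ventricles that secretes cerebrospinal fluid. The ependyma is the layer of multiciliated cells that lines the same ventricles. Choroid plexus epithelium expresses Htr2c at high levels, and miRNAs encoded in its introns are made from the same primary transcript. The host genes of miR-204 and miR-211, Trpm3 and Trpm1, encode cation channels, and Trpm3 is strongly expressed in choroid plexus and also in neurons. miR-34b, miR-34c and miR-449a act together in the assembly of motile cilia, and members of this family also occur outside ciliated cells. The hippocampus and the cerebellum are not choroid plexus or ependyma themselves, but both border ventricles that hold these tissues.

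The mature sequences show which of the 10 miRNAs share a seed (bases 2 to 8, in capitals), the stretch that pairs with targets, and which reads are hard to tell apart. Sequences and positions are from RefSeq, build GRCm38.p6, which held 9 of the 10. Host genes are from the GENCODE annotation of the same mouse assembly. None of the 9 overlapped an annotated exon of a gene other than its own hairpin, so those inside a host gene are intronic. The Htr2c-hosted miRNAs each have a seed of their own:
miR-1298-5p: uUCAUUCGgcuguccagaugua
miR-448-3p: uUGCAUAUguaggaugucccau
miR-1264-3p: cAAAUCUUauuugagcaccugu
miR-1912-3p: cACAGAACaugcagugagaacu
The next pair, from introns of Trpm3 and Trpm1, shares its seed and differs at 1 base, A17U from miR-204-5p to miR-211-5p, counted from the 5′ end:
miR-204-5p: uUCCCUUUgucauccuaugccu
miR-211-5p: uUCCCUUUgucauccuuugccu
The ciliated-cell miRNAs are shown with miR-34a-5p and miR-449c-5p, relatives that share the seed of miR-34b-5p and miR-449a-5p and whose log2 changes between tissues had the opposite sign:
miR-34b-5p: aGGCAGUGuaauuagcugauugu
miR-449a-5p: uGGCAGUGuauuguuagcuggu
miR-34a-5p: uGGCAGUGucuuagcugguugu
miR-449c-5p: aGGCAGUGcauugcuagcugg
miR-34b-3p: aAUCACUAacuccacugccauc
miR-1912-3p (chrX:147009493-147009514), miR-1264-3p (chrX:147010655-147010676), miR-1298-5p (chrX:147064918-147064939) and miR-448-3p (chrX:147158281-147158302) lie in that order on the plus strand inside Htr2c (chrX:146962513-147197277). miR-204-5p lies at chr19:22750610-22750631 and miR-211-5p at chr7:64205831-64205852, both on the plus strand. Both strands of hairpin miR-34b lie on the minus strand of chromosome 9 (5p at chr9:51103610-51103632), inside Btg4, which runs on the plus strand. miR-449a-5p lies at chr13:113037549-113037570 on the plus strand, in Cdc20b, a gene itself known from multiciliated cells.

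Libraries held 8591172 to 15305829 miRNA reads, and levels are CPM, reads scaled to library totals of miRNA reads, without further scaling. RNA integrity numbers ran from 8.5 to 9.5. The libraries of a group differed from each other far beyond counting error, with a chi-square per degree of freedom of 37.8 to 534. One library stands apart for these miRNAs: WT hippocampus replicate 3 had the lowest level among the 6 hippocampus libraries of 9 of the 10 miRNAs, the exception being miR-211-5p. Results that rest on it are given with and without it.

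miR-1298-5p, the most abundant of the Htr2c-hosted miRNAs, swung between replicates more than any other of the 441 miRNAs with a mean of at least 10 CPM. In hippocampus it had 330, 2181 and 1476 CPM in the CyrKO libraries and 694, 2042 and 27.1 CPM in the WT libraries. In cerebellum it had 55.2, 7.27 and 2.50 CPM in the double mutants, 69.2, 4.64 and 5.00 CPM in CyrKO, 11.6, 280 and 8.71 CPM in Cdr1as671, and 205, 3.69 and 2.69 CPM in WT. One library of each cerebellum group was far above the other 2 of its group, and a WT hippocampus library was far below its group. The highest library was 80.6 times the lowest among the 6 hippocampus libraries and 112 times the lowest among the 12 cerebellum libraries. In group means with their SD over 3 libraries, miR-1298-5p averaged 1329 ± 934 CPM in CyrKO hippocampus and 921 ± 1026 CPM in WT hippocampus. It averaged 21.7 ± 29.2 CPM in double-mutant, 26.3 ± 37.2 CPM in CyrKO, 99.98 ± 156 CPM in Cdr1as671 and 70.6 ± 117 CPM in WT cerebellum. In 5 of these 6 groups the SD was larger than the mean, the exception being CyrKO hippocampus.

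miR-448-3p, from the same gene, followed the same libraries. It had 43.0, 206 and 147 CPM in CyrKO hippocampus and 86.1, 195 and 6.90 CPM in WT hippocampus. In cerebellum it had 6.17, 1.84 and 1.13 CPM in the double mutants, 8.64, 1.11 and 1.25 CPM in CyrKO, 2.07, 29.5 and 1.61 CPM in Cdr1as671, and 24.1, 0.737 and 1.09 CPM in WT. The high library of each cerebellum group was the one that was high for miR-1298-5p. The low libraries rest on few reads, 9 in WT cerebellum replicate 2 for example.

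miR-1264-3p had 85.7, 344 and 243 CPM in CyrKO hippocampus, against 135, 339 and 37.6 CPM in WT hippocampus. In cerebellum the values were 13.4, 4.56 and 3.29 CPM in the double mutants, 16.1, 3.53 and 3.75 CPM in CyrKO, 4.65, 45.6 and 4.45 CPM in Cdr1as671, and 34.9, 2.46 and 2.29 CPM in WT. Its range was narrower than that of miR-1298-5p, 9.15-fold in hippocampus and 19.9-fold in cerebellum. miR-1912-3p was the rarest of the Htr2c-hosted miRNAs, with 2.83, 14.9 and 11.1 CPM in CyrKO hippocampus and 4.07, 14.5 and 0.324 CPM in WT hippocampus. It had no read in 3 cerebellum libraries, replicate 3 of Cdr1as671 and replicates 2 and 3 of WT, which allows levels of up to 0.284, 0.246 and 0.299 CPM. Its highest cerebellum level was 1.86 CPM, in Cdr1as671 replicate 2. These limits, 3 reads of a library's total, cover counting error only.

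**Figure D1:**
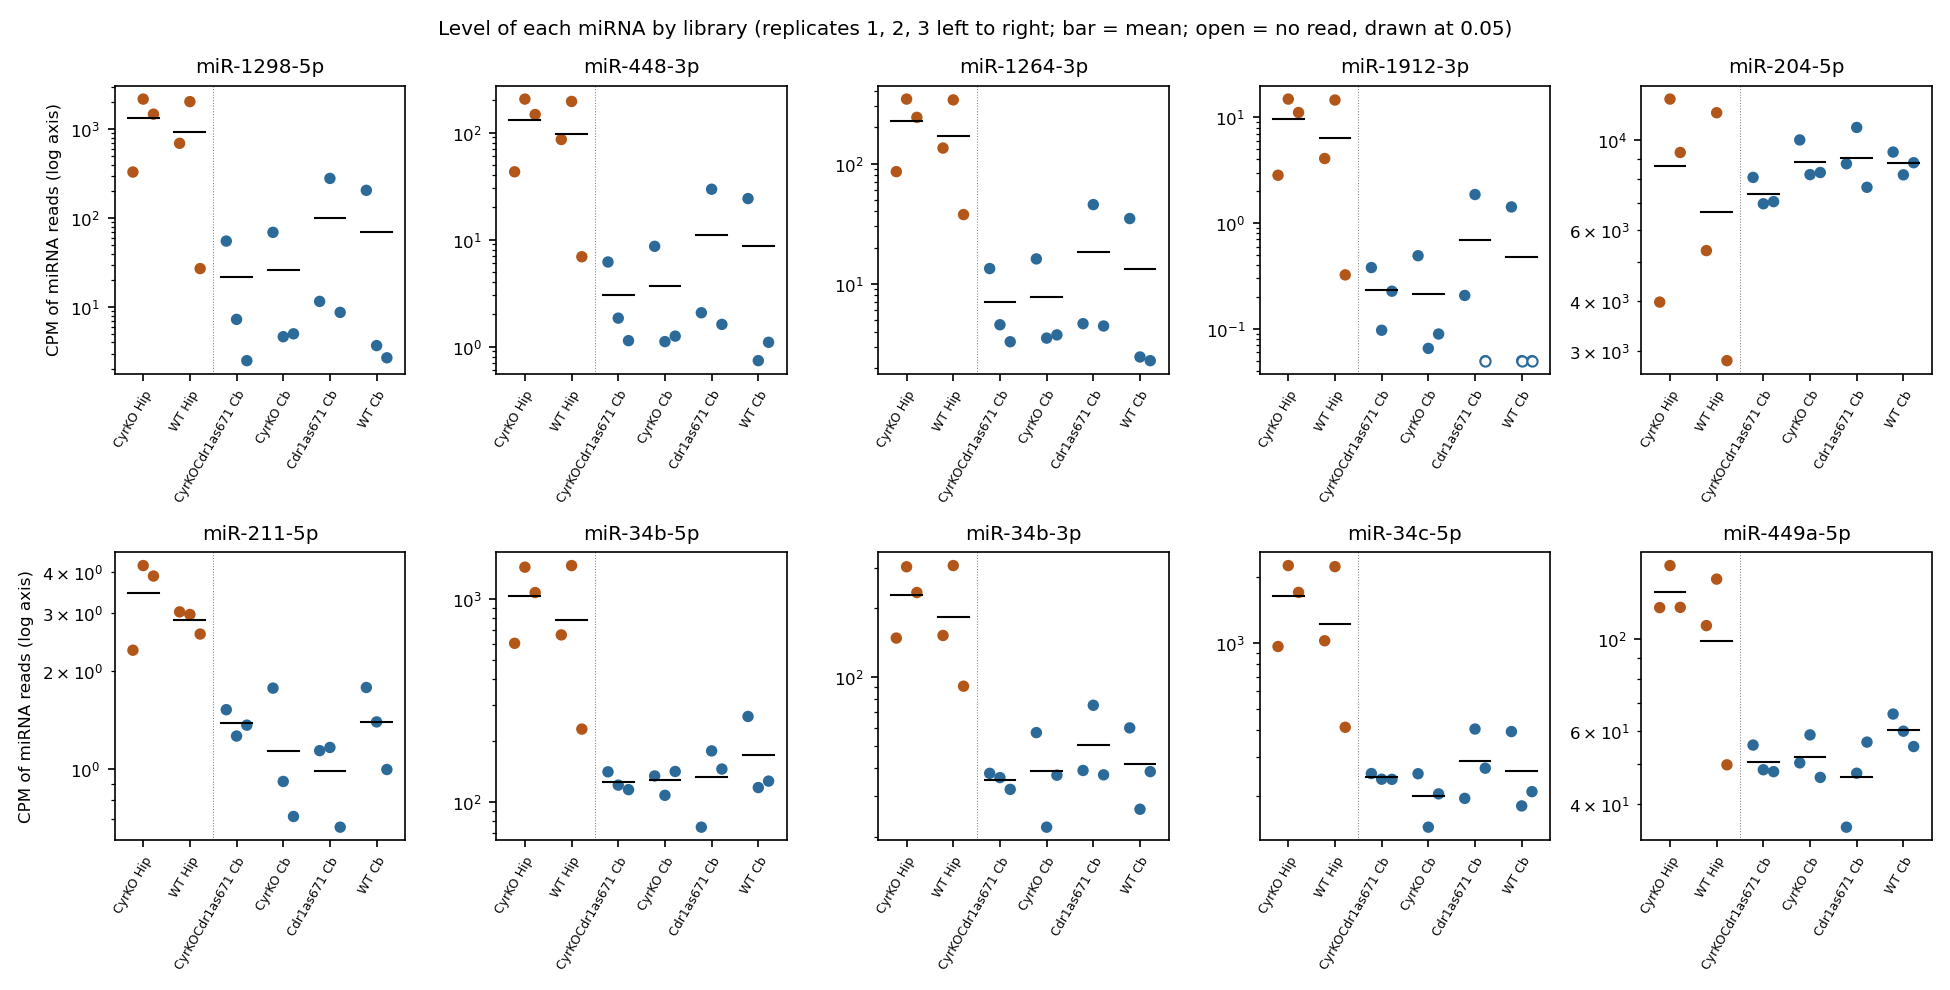
Level of each of the 10 miRNAs in every library, in CPM on a log axis, with hippocampus (Hip, brown) left of cerebellum (Cb, blue) and mutants left of WT. Points are replicates 1 to 3 from left to right, bars are group means, and open circles at the bottom mark libraries without a read. In the top row 1 WT hippocampus library, at 27.1 CPM of miR-1298-5p, falls among the cerebellum libraries, and 1 library stands high in each cerebellum group.

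miR-204-5p was the most abundant of the 10 miRNAs, at a mean of 8225 CPM over the 18 libraries. It had 3967, 12666 and 9333 CPM in CyrKO hippocampus, against 5325, 11714 and 2837 CPM in WT hippocampus. The hippocampus libraries low in miR-1298-5p were also its low ones. In cerebellum it stayed between 6961 and 10769 CPM over 12 libraries, a 1.55-fold range, against 4.46-fold over the 6 hippocampus libraries. miR-211-5p, its near-identical relative, was scarce, with 2.31, 4.195 and 3.90 CPM in CyrKO hippocampus and 3.03, 2.97 and 2.59 CPM in WT hippocampus. In cerebellum it ranged from 0.663 to 1.78 CPM, with a median of 1.21 CPM. Since 1 base separates it from a far more abundant miRNA, the part of misread miR-204-5p in these counts was not tested. Its other strand, miR-211-3p, had 2 reads in all, 1 in each of 2 hippocampus libraries.

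Of the ciliated-cell miRNAs, miR-34c-5p had the highest level, 962, 2256 and 1701 CPM in CyrKO hippocampus and 1022, 2232 and 411 CPM in WT hippocampus. Its cerebellum levels were 252, 238 and 237 CPM in the double mutants, 252, 143 and 204 CPM in CyrKO, 194, 403 and 267 CPM in Cdr1as671, and 393, 179 and 209 CPM in WT. All 6 hippocampus libraries lay above all 12 cerebellum libraries, the lowest by little. The highest cerebellum values came from Cdr1as671 replicate 2 and WT replicate 1, the libraries highest in miR-1298-5p. miR-34b-5p had 603, 1430 and 1072 CPM in CyrKO hippocampus and 663, 1457 and 228 CPM in WT hippocampus, against 74.8 to 263 CPM over the cerebellum libraries. miR-34b-3p, the other strand of that hairpin, had 148, 303 and 234 CPM in CyrKO hippocampus and 152, 307 and 91.0 CPM in WT hippocampus, against 22.02 to 75.1 CPM in cerebellum. miR-449a-5p, from a second locus, moved least, with 119, 151 and 119 CPM in CyrKO hippocampus and 108, 140 and 49.7 CPM in WT hippocampus, against 35.1 to 66.0 CPM in cerebellum.

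In the order of group means the 2 hippocampus groups were the highest for 9 of the 10 miRNAs, all but miR-204-5p, with CyrKO above WT. The ranges of CyrKO and WT hippocampus overlapped for all 9. The place of CyrKO above WT rests in part on WT hippocampus replicate 3. Without it the edgeR log2 change of CyrKO over WT turned negative for the Htr2c-hosted miRNAs, miR-34b-3p and miR-34b-5p, from -0.090 to -0.0055. It stayed positive for miR-34c-5p, miR-449a-5p and miR-211-5p, from 0.015 to 0.17. Neighbouring groups in the order of means did not overlap at 1 step for 3 miRNAs: WT hippocampus lay above the next group, a cerebellum one, for miR-211-5p, miR-34b-3p and miR-34c-5p. No other neighbouring groups were separate for any of the 10. Between the tissues as a whole, the same 3 of 10 had no overlap, against 71.0% of the 441 miRNAs with a mean of at least 10 CPM. The 441 do not include miR-211-5p and miR-1912-3p, whose means were 1.87 and 2.92 CPM, so the 2 sets are not alike. Without WT hippocampus replicate 3 the count was 9 of 10, against 74.8% of the 441. With library sizes scaled by TMM, edgeR's correction for composition, it was 0 of 10, against 63.5%.

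The spread between replicates set these miRNAs apart in rank. The SD of log2(CPM + 1) about the group means was 2.54 for miR-1298-5p, the highest of 441 miRNAs, and 1.74 for miR-448-3p, the second. miR-1264-3p followed as number 4 with 1.45, after miR-1912-5p, the partner strand of miR-1912-3p. Next among the 10 came miR-34b-5p with 0.72 (number 13), miR-34c-5p with 0.67 (number 15), miR-34b-3p with 0.60 (number 19) and miR-204-5p with 0.56 (number 20). miR-449a-5p had 0.36 and ranked 31. Of the 8 with a mean of at least 10 CPM, 7 were above the 95th percentile of all miRNAs, 0.51, and their median SD was 0.69 against 0.14 over all 441. This is a description, since their variability was known when they were chosen. The red-cell miRNAs miR-144-3p, miR-144-5p and miR-451a also ranked among the first 7.

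Whether these miRNAs swung together was measured as the correlation, between replicates, of log2(CPM + 1) centred on the group means. miR-1298-5p served as the anchor, and its exact two-sided permutation test shuffled libraries within groups (46656 arrangements). The shuffle treats libraries of different groups as independent, whereas same-numbered libraries of WT cerebellum deviated together with those of CyrKO and of double-mutant cerebellum, so these p-values may be too small. Of 440 other miRNAs, 12 or 2.73% had a positive correlation past an adjusted p of 0.05 over all 440. Of these 12, 6 were among the 7 tested miRNAs of this set and 6 were partner strands or relatives of them. This split is a description, since the set and its relatives were chosen with earlier results of these data known. Partner strands also share a hairpin, and the Htr2c-hosted miRNAs share a host gene. None of the 425 other miRNAs passed in the positive direction, although 28 had an unadjusted p under 0.05 in either direction. The 1 that passed in the negative direction was miR-186-3p, with r = -0.80 and rho = -0.68 (permutation p = 0.00109, adjusted p = 0.037), named after its value was seen.

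Of the Htr2c-hosted miRNAs, 2 were abundant enough to be tested. miR-448-3p had r = 0.99 and rho = 0.94 (exact permutation p = 8.57e-05, adjusted p = 0.011). For miR-1264-3p the values were r = 0.98 and rho = 0.97 (exact permutation p = 2.14e-05, the smallest these arrangements can give, adjusted p = 0.00472). miR-1912-3p was below 10 CPM and was not tested; its r was 0.84. The partner strands from the same gene did the same: miR-1264-5p had r = 0.96, miR-1912-5p r = 0.95, miR-764-5p r = 0.95 and miR-1298-3p r = 0.88, all past the threshold.

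The ciliated-cell miRNAs followed with more scatter. miR-34b-3p had r = 0.86 and rho = 0.84 (exact permutation p = 0.000129, adjusted p = 0.011), and miR-34c-5p r = 0.84 and rho = 0.86 (exact permutation p = 0.000364, adjusted p = 0.0178). miR-34b-5p had r = 0.80 and rho = 0.76 (exact permutation p = 0.00103, adjusted p = 0.037). miR-449a-5p had r = 0.59 and rho = 0.51 and did not pass (exact permutation p = 0.0556, adjusted p = 0.549). Their relatives miR-34c-3p, r = 0.82, and miR-34a-3p, r = 0.80, passed as well, whereas miR-34a-5p had r = 0.43 (adjusted p = 0.745). miR-204-5p had r = 0.67 and rho = 0.71 (exact permutation p = 0.00015, adjusted p = 0.011), and miR-211-5p, below 10 CPM, had r = 0.69 without a test.

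The 2 libraries farthest from the median of centred miR-1298-5p were WT cerebellum replicate 1 and Cdr1as671 cerebellum replicate 2. Without them r ran from 0.65 to 0.98 over the 9 miRNAs set against miR-1298-5p. Leaving out single libraries left 3 to 6 miRNAs of the set past the threshold, and the count of 3 came without Cdr1as671 cerebellum replicate 2. Within the 12 cerebellum libraries alone all 9 correlations were positive, from 0.29 to 0.99, and within the 6 hippocampus libraries from 0.61 to 1.00. With so few libraries the 425 other miRNAs also ran far, from -0.88 to 0.86 in cerebellum and from -0.99 to 0.97 in hippocampus. Without the 2 libraries farthest out the lowest of the 9 was 0.094 in cerebellum, for miR-449a-5p, and 0.12 in hippocampus, for miR-211-5p. Neither tissue alone gave a miRNA past the adjusted threshold. The smallest permutation p possible was 0.000772 with 1296 arrangements in cerebellum and 0.0278 with 36 in hippocampus. In cerebellum the correlation was 0.23 for miR-34b-5p and 0.51 for miR-34c-5p without WT replicate 1 and Cdr1as671 replicate 2.

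**Figure D2:**
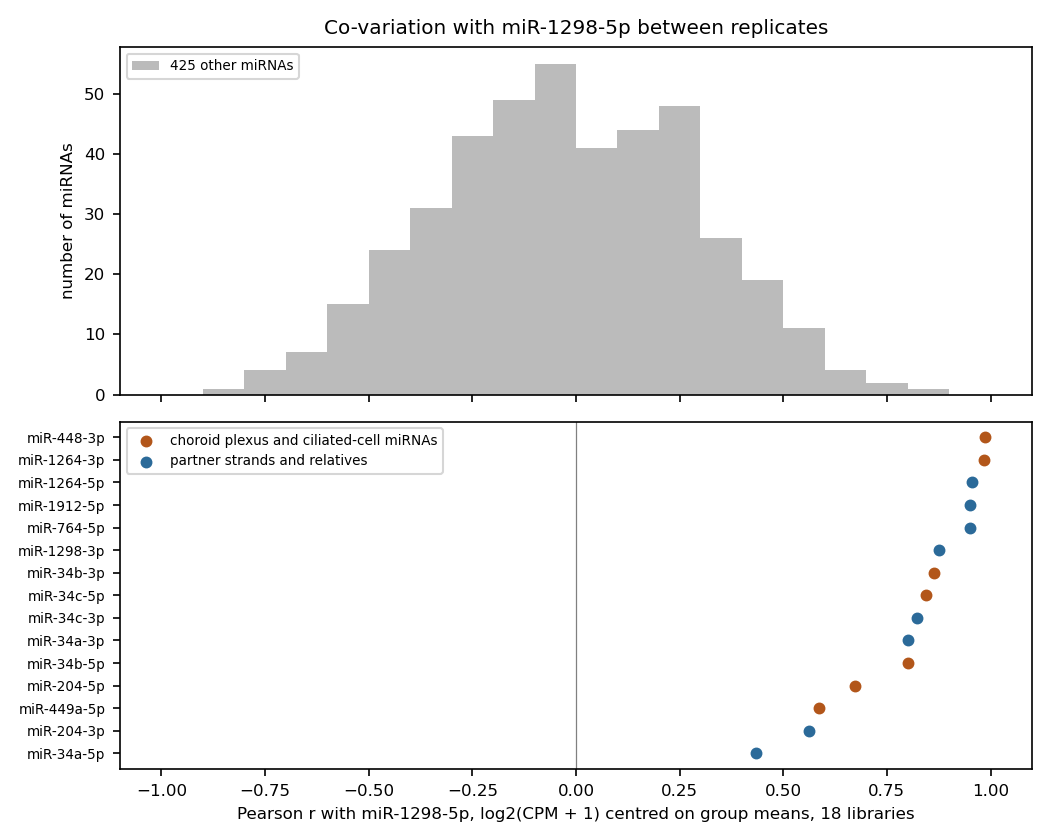
Pearson correlation with miR-1298-5p of log2(CPM + 1), centred on group means, over 18 libraries. The upper panel counts the 425 other miRNAs in steps of 0.1, and the lower panel shows the tested choroid plexus and ciliated-cell miRNAs and their relatives, which run from 0.43 to 0.99.

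The 5 miRNAs outside the set and its relatives most like miR-1298-5p over these 18 libraries were miR-103-1-5p (r = 0.83), miR-124-3p (r = 0.72), miR-375-3p (r = 0.70), miR-8112 (r = 0.64) and miR-15a-3p (r = 0.63). None passed, with adjusted permutation p from 0.16 to 0.525. Summed markers of other cell types correlated with miR-1298-5p at r = 0.15 for the epithelial miR-200 family and 0.59 for mesenchymal miR-199 and miR-214. The values were -0.25 for vessel, -0.19 for erythroid, 0.32 for immune, 0.27 for oligodendrocyte and 0.47 for neuronal miRNAs. The neuronal miRNAs differed among themselves, with r = 0.72 for miR-124-3p, 0.18 for miR-128-3p, 0.06 for miR-9-3p and -0.32 for miR-9-5p. The immune sum held miR-223-3p, miR-155-5p and miR-146a-5p and left out miR-142-3p (r = -0.07) and miR-142-5p (r = -0.17). RNA integrity gave r = -0.28 and depth r = -0.27. These values are descriptions over the same 18 libraries, and their part in the swings was not tested.

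Within Htr2c the miRNAs were not in a fixed proportion. The ratio of miR-1298-5p to miR-1264-3p reads was 3.85, 6.33 and 6.08 in CyrKO hippocampus and 5.15, 6.02 and 0.719 in WT hippocampus. In cerebellum it was 4.13, 1.60 and 0.759 in the double mutants, 4.30, 1.31 and 1.33 in CyrKO, 2.49, 6.14 and 1.96 in Cdr1as671, and 5.89, 1.5 and 1.17 in WT. The libraries rich in miR-1298-5p had the high ratios in both tissues, and WT hippocampus replicate 3 had the lowest of all 18, on 251 reads of miR-1298-5p and 349 of miR-1264-3p. The 2 strands of hairpin miR-1298 differed in the same way. The ratio of 5p to 3p reads was 13.1, 33.1 and 31.5 in CyrKO hippocampus, against 26.9, 33.6 and 1.87 in WT hippocampus. In cerebellum it was 22.4, 7.50 and 1.22 in the double mutants and 27.1, 3.23 and 2.80 in CyrKO. The cerebellum values were 10.2, 31.6 and 6.13 in Cdr1as671 and 30.4, 3.00 and 1.35 in WT. Low libraries thus kept relatively more of miR-1298-3p, which had 14.5 CPM in WT hippocampus replicate 3, against 1.99 CPM or less in the WT cerebellum replicates 2 and 3. No test was made on these ratios, which were noticed in the data, and counts of 10 to 22 reads of miR-1298-3p lie behind the low cerebellum ratios. The 2 strands of hairpin miR-1264 varied less, from 0.92 to 2.18 reads of 3p per read of 5p.

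**Figure D3:**
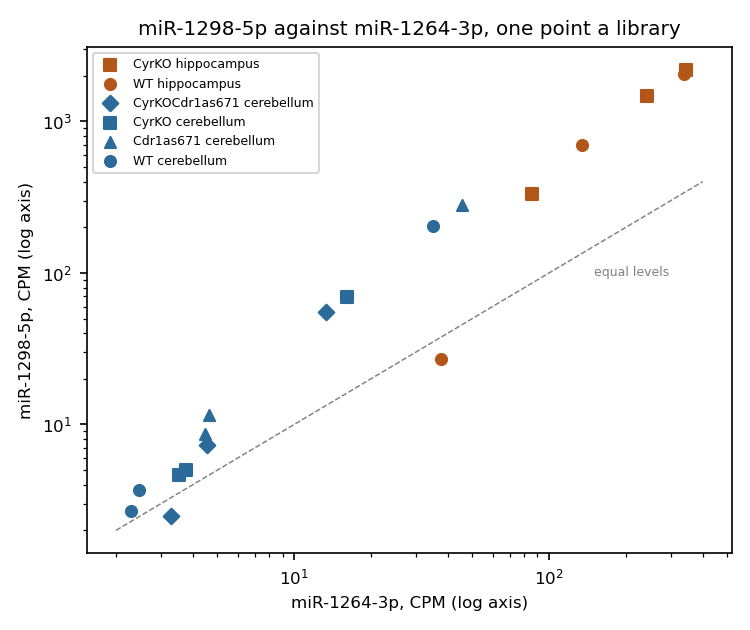
miR-1298-5p against miR-1264-3p, both in CPM on log axes, with 1 point for each of the 18 libraries (brown, hippocampus; blue, cerebellum; shapes are genotypes). The dashed line marks equal levels. Libraries with much miR-1298-5p lie well above the line, at ratios of 3.85 to 6.33 in 5 hippocampus libraries, and WT hippocampus replicate 3 lies below it at 0.719.

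miR-34b and miR-34c kept a steadier proportion. There were 1.34 to 2.60 reads of miR-34c-5p per read of miR-34b-5p over all 18 libraries, and 1.53 to 1.80 in hippocampus. The log2 ratio of the 5p to the 3p strand of hairpin miR-34b averaged 2.16 ± 0.11 in CyrKO and 1.90 ± 0.50 in WT hippocampus (SD, n = 3 each by group). In cerebellum it averaged 1.82 ± 0.08 in the double mutants, 1.81 ± 0.54 in CyrKO, 1.38 ± 0.52 in Cdr1as671 and 2.0 ± 0.25 in WT. None of the 5 comparisons of this ratio, each mutant with WT of its tissue and WT hippocampus with WT cerebellum, passed an exact two-sided permutation test. Their p ran from 0.2 to 0.8, with a Benjamini-Hochberg adjusted p of 0.8 in each, and 3 against 3 libraries cannot give less than 0.1.

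The comparisons of each mutant with WT asked which miRNAs depend on Cyrano and on the pairing of miR-671 with Cdr1as. In hippocampus, 0 of the 10 miRNAs changed in CyrKO against WT (edgeR quasi-likelihood test, adjusted p under 0.05), against 0.57% of 702 miRNAs tested. All 10 log2 changes were positive, from 0.23 for miR-211-5p to 0.54 for miR-1912-3p, with a median of 0.39 against -0.0045 over all miRNAs. miR-1298-5p had a log2 change of 0.53 ± 1.58 (SE; adjusted p = 0.959) and miR-34c-5p one of 0.42 ± 0.75 (adjusted p = 0.948). The shared sign rests on single libraries. Without WT hippocampus replicate 3, 6 of the 10 changes turned negative, and the 10 ran from -0.09 to 0.17. Without CyrKO hippocampus replicate 2, those of miR-448-3p, miR-1298-5p and miR-1264-3p turned negative, at -0.013, -0.022 and -0.055. None of the 10 had an unadjusted p under 0.05 in edgeR, and DESeq2 and the authors' deposited table also called 0.

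In cerebellum 9 of the 10 were tested, because miR-1912-3p did not pass the filter on low counts. CyrKO against WT gave 0 calls (edgeR quasi-likelihood test) against 0.898% of 668 miRNAs, and none of the 9 had an unadjusted p under 0.05. miR-1298-5p had a log2 change of -1.46 ± 2.22 (SE), miR-34b-5p one of -0.41 ± 0.37 and miR-204-5p one of 0.01 ± 0.10, with an adjusted p of 0.999 for each. In the double mutants against WT the count was 0 against 2.57% of 662, again with no unadjusted p under 0.05. miR-1298-5p had a log2 change of -1.67 ± 2.19 (adjusted p = 0.717) and miR-204-5p one of -0.18 ± 0.085 (adjusted p = 0.288). Cdr1as671 against WT gave 0 calls against 2.26% of 665. There miR-1298-5p had a log2 change of 0.38 ± 2.35 (adjusted p = 0.942). miR-449a-5p, at 35.1, 47.4 and 56.4 CPM in Cdr1as671 and 66.0, 59.95 and 55.0 CPM in WT, had one of -0.42 ± 0.17 with an unadjusted p of 0.0294 and an adjusted p of 0.187 (edgeR). Without Cdr1as671 replicate 3 it passed, at -0.62 with an adjusted p of 0.0116. DESeq2 and the authors' deposited table called none of the members to which they gave an adjusted p. Both gave none to miR-448-3p, miR-1298-5p and miR-1264-3p in any of the 3 cerebellum comparisons, nor to miR-211-5p in Cdr1as671 and in the double mutants, so these could not be called. The authors' deposited table also gave none to miR-1912-3p in those same genotypes.

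The WT libraries are shared by the 3 cerebellum comparisons, and 1 of them sets several signs. Without WT cerebellum replicate 1, the log2 change of miR-1298-5p was 3.01 in CyrKO and 2.85 in the double mutants, both opposite to the value with it. Without Cdr1as671 replicate 2 it was -2.86 in Cdr1as671. The standard error of miR-1298-5p was 2.19 to 2.35 log2 units in these comparisons. Even a change well beyond several fold could thus go undetected for it, whereas the standard error of miR-204-5p was 0.085 to 0.12. In 3 of the 4 cerebellum genotypes the high library was the one numbered 1, and in Cdr1as671 it was number 2. The difference of the CyrKO effect between hippocampus and cerebellum was called for 0 of the 10, against 0.402% of 746 (edgeR), with no unadjusted p under 0.05 and a DESeq2 count of 0.

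**Figure D4:**
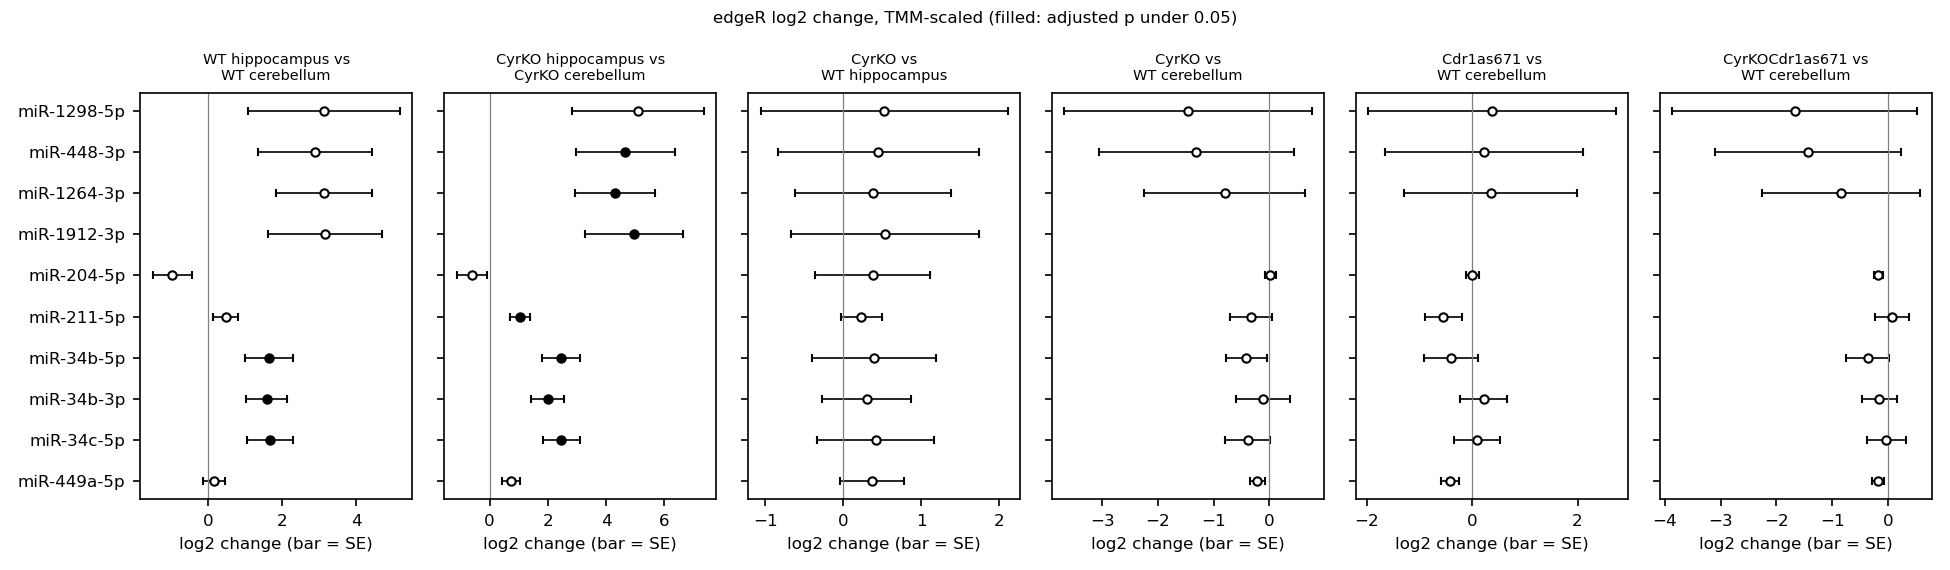
edgeR log2 change of each miRNA with its standard error in 6 comparisons, the first-named group over the second, with library sizes scaled by TMM and each panel on its own scale. Filled points passed an adjusted p of 0.05. The 4 genotype comparisons hold no filled point, and miR-34b-5p, miR-34b-3p and miR-34c-5p are filled in both tissue comparisons.

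The ciliated-cell miRNAs of chromosome 9 were higher in hippocampus than in cerebellum, by calls that depend on the settings in WT. In WT, 3 of the 10 were higher in hippocampus and 0 lower (edgeR, 12 WT and CyrKO libraries in 1 fit), against 37.5% of 746 miRNAs called higher, 32.4% called lower and 70.0% called in either direction. The share among the 10 is thus no larger than that over all miRNAs. miR-34b-3p was 2.99-fold higher (log2 change 1.58 ± 0.55, adjusted p = 0.0308), miR-34c-5p 3.17-fold (1.67 ± 0.62, adjusted p = 0.04) and miR-34b-5p 3.13-fold (1.65 ± 0.65, adjusted p = 0.0481). All 3 calls were lost without the filter on low counts (edgeR adjusted p from 0.0555 to 0.0859) and with a replicate block (from 0.0677 to 0.108). With RLE size factors miR-34b-5p also missed the threshold (adjusted p = 0.0507). The Htr2c-hosted miRNAs had larger changes with larger errors and did not pass, miR-1264-3p with 3.11 ± 1.30 (adjusted p = 0.0593) and miR-1298-5p with 3.13 ± 2.05 (adjusted p = 0.199). miR-204-5p had a log2 change of -0.97 ± 0.53 (adjusted p = 0.135). The count rests on single libraries: it was 6 without WT hippocampus replicate 3 and without WT cerebellum replicate 1, and 0 without WT cerebellum replicate 2 or 3. It was 1 without WT hippocampus replicate 1 or 2, CyrKO hippocampus replicate 3, or CyrKO cerebellum replicate 1 or 3. These counts take calls in either direction. With single libraries left out, the log2 change of miR-204-5p ran from -1.60 to -0.55. Its lowest adjusted p there was 0.0247 (edgeR), so at least 1 of these counts includes it as lower.

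In CyrKO animals 7 of the 10 were higher in hippocampus than in cerebellum, and 0 lower, against 38.9% of miRNAs called higher, 33.2% called lower and 72.1% called in either direction. miR-34c-5p was 5.54-fold higher (log2 change 2.47 ± 0.64, adjusted p = 0.00782), miR-34b-5p 5.49-fold and miR-34b-3p 3.99-fold. miR-1264-3p was 19.7-fold higher (4.30 ± 1.38, adjusted p = 0.0211), and miR-448-3p and miR-1912-3p also passed, at 25.2-fold and 31.2-fold. miR-211-5p was 2.06-fold higher (1.04 ± 0.33, adjusted p = 0.0106). miR-1298-5p, with the largest change, 5.10 ± 2.26, did not pass (adjusted p = 0.071), nor did miR-449a-5p (0.74 ± 0.31, adjusted p = 0.0537). Leaving out single libraries gave counts from 3 to 8, with 3 without CyrKO cerebellum replicate 3 and 4 without CyrKO cerebellum replicate 2. The tissue differences of CyrKO and WT were not shown to differ, as the interaction gave 0 calls.

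Not all relatives followed. Of 11 relatives tested, 6 were higher and 3 lower in WT hippocampus, and 7 were higher and 3 lower in CyrKO hippocampus. Over all 746 miRNAs tested, 37.5% were called higher and 32.4% lower in WT, and 38.9% and 33.2% in CyrKO. miR-34a-5p, which has the seed of miR-34b-5p but comes from another locus, had 711, 936 and 635 CPM in CyrKO hippocampus and 810, 874 and 594 CPM in WT hippocampus. It had 2022, 2118 and 2139 CPM in CyrKO cerebellum and 2831, 2514 and 2593 CPM in WT cerebellum, with no overlap between the tissues. Its log2 change, hippocampus over cerebellum, was -2.04 ± 0.14 in CyrKO (adjusted p = 2.84e-09) and -2.35 ± 0.14 in WT (adjusted p = 5.8e-10, edgeR). miR-34a-3p and miR-449c-5p were the other 2 that were lower, with log2 changes of -2.38 and -0.998 in WT. For miR-449c-5p this depends on the scale. With library totals in place of TMM its log2 change was -0.51 in CyrKO (edgeR, adjusted p = 0.0529) and -0.45 in WT (adjusted p = 0.102), and it no longer passed. In CPM its tissues overlapped, with 1.73 to 2.25 CPM in hippocampus and 1.70 to 3.33 CPM in cerebellum. Among the higher ones were the minor strands of the Htr2c hairpins, miR-1298-3p at 6.86-fold and miR-448-5p at 6.31-fold in WT, where their partner strands did not pass.

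The scale matters for tissue differences, because library totals in place of TMM moved the median log2 change of all miRNAs by 0.55 in WT and 0.58 in CyrKO. With totals, 402 were called higher and 126 lower in WT, against 280 and 242 with TMM, and in CyrKO 419 and 126 against 290 and 248. In the double mutants against WT cerebellum the split was 10 higher and 21 lower with totals, against 13 and 4. The log2 change of miR-204-5p between WT tissues stayed negative under both scalings, and miR-34b-3p, miR-34b-5p and miR-34c-5p stayed positive. Some other cell-type markers also differed between the tissues in CPM, without TMM. The 5 epithelial miR-200 miRNAs summed to 59.3 to 250 CPM in CyrKO and 147 to 208 CPM in WT hippocampus, against 3.78 to 13.04 CPM over the cerebellum groups. The 3 immune miRNAs miR-223-3p, miR-155-5p and miR-146a-5p summed to 584 to 592 CPM in CyrKO and 576 to 644 CPM in WT hippocampus. In cerebellum they summed to 184 to 246 CPM. miR-142-3p and miR-142-5p were counted under these names, whereas the marker list calls them miR-142a, so they are not in this sum. Their levels by tissue are not given here. The 3 mesenchymal miRNAs found of 4 overlapped between the tissues. They had 101 to 140 and 71.9 to 120 CPM in CyrKO and WT hippocampus, and 49.8 to 108 CPM in cerebellum. No marker in these sums was at 0 in all libraries of a group, and their part in the tissue differences was not tested. WT hippocampus replicate 3 was the lowest hippocampus library for the mesenchymal sum, at 71.9 CPM, and the oligodendrocyte sum, at 9564 CPM. It was not the lowest for miR-200 (155 CPM), immune (644 CPM), vessel (11565 CPM), erythroid (2665 CPM) or neuronal miRNAs (259332 CPM).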

How the data were processed

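Small RNAs of 18 to 32 nt from 5 µg total RNA were sequenced, 3 libraries for each of 6 groups, grouped by the labels. The submitters' processing notes name cutadapt and DESeq2 1.10; aligner, miRNA annotation and genome build were not given in the sources used here. Raw read counts for each mature miRNA were deposited. They also deposited a normalised signal, which per the file headers is the count over a size factor set within each table. Each of the 4 tables further holds the authors' log2 fold change with its standard error, the Wald score of their test, and its p-value and adjusted p-value.

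Here the counts were joined over tables; the WT cerebellum columns that 3 tables share held the same values. edgeR 4.0.16 (R 4.3.3) gave the quasi-likelihood test with TMM scaling, robust fit, filterByExpr (minimum count 10, minimum total 15) and Benjamini-Hochberg adjustment over all miRNAs kept, at a threshold of 0.05; it was tested on simulated data. Standard errors of edgeR log2 changes were derived as the absolute change over the square root of the F statistic. Levels are CPM of all miRNA reads. Co-variation used log2(CPM + 1), miRNAs with a mean of at least 10 CPM, and exact permutation within groups. The replicates are biological per the labels, which do not say that a number marks the same animal or batch. Same-numbered libraries deviated together in every pair for CyrKO against WT cerebellum (r = 0.61, 0.41 and 0.24) and CyrKOCdr1as671 against WT cerebellum (r = 0.72, 0.41 and 0.62), but not in every pair of the other comparisons. The fits printed carry no replicate block; the blocked fit is an alternative, given where it changes a call. All 10 miRNAs, the relatives that passed a test or were most abundant, and the 5 other miRNAs most correlated with miR-1298-5p are named. Alternatives were RLE size factors, library totals, no filter or a filter of 10 CPM, DESeq2 1.42.0, a replicate block, 1 fit of all cerebellum libraries, a pseudocount of 0.1 CPM and each library left out. The members and lists were chosen with earlier results of these data known.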

Additional observations from a re-analysis of the deposited data

How the results depend on the processing

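Depth limits miR-1912-3p and miR-211-5p, and spread between replicates limits the Htr2c-hosted miRNAs. The count of 0 in each genotype comparison and in the interaction held under every alternative run, except that leaving out libraries gave 0 to 1 for Cdr1as671. The replicate block changed no member's call in the genotype comparisons. Of the hippocampus over cerebellum counts, the one in WT was 5 with library totals and 5 with DESeq2 (4 higher and miR-204-5p lower). It was 2 with RLE (miR-34b-5p lost), 0 without a filter and 0 with a replicate block. The labels do not say whether replicate numbers pair the samples of the 2 tissues. Leaving out libraries gave 0 to 6 in WT, and 3 to 8 in CyrKO. Leaving out a library, chosen after seeing the data for these measures, gave 3 to 6 correlated miRNAs and 3 to 9 without tissue overlap (0 with TMM). The causes were not tested.

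Signs turned in the following log2 changes, none of which passed. For miR-204-5p in Cdr1as671 the values were 0.0077 with RLE, 0.043 with library totals, 0.021 without a filter, 0.0077 with DESeq2 and 0.0067 in the authors' deposited table. In CyrKOCdr1as671, miR-211-5p was -0.017 with library totals and miR-34c-5p 0.053 with the replicate block.

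Leaving out single libraries gave these ranges. For CyrKO against WT cerebellum they were -0.070 to 0.087 for miR-204-5p, -0.49 to 0.26 for miR-34b-3p, -0.62 to 0.075 for miR-34b-5p, -0.60 to 0.049 for miR-34c-5p, -2.87 to 1.95 for miR-448-3p, -3.88 to 3.01 for miR-1298-5p and -1.86 to 1.68 for miR-1264-3p. For CyrKO against WT hippocampus they were -0.0055 to 0.90 for miR-34b-3p, -0.031 to 1.20 for miR-34b-5p, -0.090 to 1.499 for miR-448-3p, -0.032 to 1.88 for miR-1298-5p, -0.075 to 1.37 for miR-1264-3p and -0.018 to 2.10 for miR-1912-3p. For Cdr1as671 against WT cerebellum they were -0.12 to 0.079 for miR-204-5p, -0.15 to 0.61 for miR-34b-3p, -0.63 to 0.11 for miR-34b-5p, -0.19 to 0.55 for miR-34c-5p, -2.28 to 3.51 for miR-448-3p, -2.86 to 4.89 for miR-1298-5p and -1.58 to 2.86 for miR-1264-3p. For CyrKOCdr1as671 against WT cerebellum they were -0.11 to 0.29 for miR-211-5p, -0.39 to 0.23 for miR-34b-3p, -0.56 to 0.14 for miR-34b-5p, -0.23 to 0.42 for miR-34c-5p, -2.45 to 1.88 for miR-448-3p, -3.78 to 2.85 for miR-1298-5p and -1.68 to 1.68 for miR-1264-3p. For WT hippocampus against WT cerebellum the range was -0.10 to 0.54 for miR-449a-5p. For the CyrKO effect in hippocampus minus cerebellum they were -0.0043 to 1.03 for miR-204-5p, -0.0095 to 0.98 for miR-34b-3p, -1.55 to 3.28 for miR-448-3p, -2.54 to 4.36 for miR-1298-5p, -1.35 to 2.21 for miR-1264-3p and -3.92 to 3.35 for miR-1912-3p.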
